A study of Homo sapiens with 27 samples.

Results

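SLC6A14 and 9 further genes of amino acid uptake were followed across 4 lines of T47D cells. T47D is an established luminal breast cancer line. The members were taken by symbol from the gene count table, which lists 26485 genes, and all 10 of 10 were found: SLC6A14, SLC7A5, SLC3A2, SLC7A11, SLC1A5, SLC1A4, SLC38A1, SLC38A2, SLC7A2 and SLC7A8. The control cells carried the empty pHAGE lentiviral vector. The mutant cells carried the same vector with a truncated GATA3 as a 3xTy1 fusion protein, either the splice site deletion (Splice del) or the frameshifts C321fs or A333fs. Wild-type GATA3 was still made in all 4 lines. Every line was 1 puromycin-selected pool, so a trait that a pool had for another reason cannot be told apart from its mutant. Each line gave 3 RNA-seq libraries, and the study calls them biological replicates without saying whether they came from separate cultures, so the p-values measure only the spread between these libraries. C321fs replicate 1 stood apart from its line: the chi-square of its counts, averaged over genes, was 15.8 and 27.8 against the other two C321fs libraries, which differed from each other by 5.59, and pairs within the other lines reached 10.4. The labels and the methods of the study name different media (with more serum and a collagen coating in the labels), and the medium of these libraries is not settled.

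Amino acids cross the plasma membrane through carriers that differ in what they take and in what drives them. SLC6A14 (ATB0,+) uses the sodium and chloride gradients to take up nearly all neutral and cationic amino acids, and in many epithelia it is made at low levels. SLC7A5 (LAT1), SLC7A8 (LAT2) and SLC7A11 (xCT) are light chains that reach the membrane bound to the heavy chain SLC3A2 (4F2hc, CD98), and exchange one amino acid for another. SLC1A5 (ASCT2) and SLC1A4 (ASCT1) exchange small neutral amino acids, glutamine for ASCT2, SLC38A1 and SLC38A2 (SNAT1 and SNAT2) carry glutamine and other small neutral amino acids inward with sodium, and SLC7A2 (CAT2) takes up cationic amino acids such as arginine.

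Of the 10 members, 8 had promoters in the RefSeq table of GRCh38.p14, with 17 start sites and 300 bases each (250 before the start and 50 after it). SLC7A11 and SLC7A2 had no entry. The promoter of SLC6A14 is shown because GATA3 is the factor altered in these cells. It spans chrX:116436356-116436655 on the plus strand. Capitals mark the single full GATA motif found in it (AGATAA or AGATAG and also TGATAA or TGATAG on either strand), an AGATAA read on the opposite strand at bases 133 to 138 of the window.
SLC6A14: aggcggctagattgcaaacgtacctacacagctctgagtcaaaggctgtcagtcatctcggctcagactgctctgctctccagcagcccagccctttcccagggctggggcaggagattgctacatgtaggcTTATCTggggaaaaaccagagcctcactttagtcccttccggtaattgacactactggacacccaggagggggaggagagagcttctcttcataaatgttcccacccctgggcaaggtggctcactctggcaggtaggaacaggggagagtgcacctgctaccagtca
A full GATA motif was present in 4 of the 17 promoters (in SLC6A14, SLC38A2 and SLC7A8) and in 24.97% of all 35116 promoters of the table. The shorter AGAT, part of the full motif, was in 15 of the 17 promoters and in 69.9% of all promoters. The next 2 promoters are shown for the motif TGATGNAA, the CARE element that the amino acid response factor ATF4 binds, in capitals as it reads on the plus strand. They lie at chr11:62881449-62881748 (SLC3A2, 1 of its 3 start sites) and chr2:64989149-64989448 (SLC1A4, 1 of 2), both plus strand, with TGATGTAA and TGATGCAA on the opposite strand.
SLC3A2: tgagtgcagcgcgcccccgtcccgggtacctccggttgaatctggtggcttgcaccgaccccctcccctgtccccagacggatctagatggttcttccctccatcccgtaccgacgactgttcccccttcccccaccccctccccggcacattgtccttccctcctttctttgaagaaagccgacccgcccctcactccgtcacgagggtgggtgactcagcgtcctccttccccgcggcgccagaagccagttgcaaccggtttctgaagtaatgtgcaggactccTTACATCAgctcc
SLC1A4: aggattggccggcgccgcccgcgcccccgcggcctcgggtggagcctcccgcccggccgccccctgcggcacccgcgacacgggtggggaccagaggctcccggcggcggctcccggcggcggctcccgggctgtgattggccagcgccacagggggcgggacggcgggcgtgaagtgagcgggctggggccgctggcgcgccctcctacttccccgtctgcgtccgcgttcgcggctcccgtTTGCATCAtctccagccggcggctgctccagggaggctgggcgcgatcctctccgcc
This motif was in 4 of the 17 promoters (1 each of SLC3A2, SLC1A4, SLC1A5 and SLC38A1) and in 3.62% of all promoters. The antioxidant response core TGACNNNGC was in 3 of the 17 (in SLC7A5, SLC3A2 and SLC1A5) and in 13.3% of all promoters. A forkhead motif (TGTTTAC or TATTTAC) was in 1 of the 17, of SLC1A5, and in 5.97% of all promoters, and the full palindromic estrogen response element was in 0 of the 17 and in 0.057% of all promoters. All motifs were searched on both strands, and a match is a string of letters and not a measured binding site.

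SLC6A14 was low in control cells and higher in every mutant library. The file places it on chromosome X from 116436579 to 116461458 of hg38 (plus strand), with 14 exon blocks and 4563 exonic bases. Its level, in CPM (counts relative to the total of the library, adjusted by its TMM factor), was 3.63, 4.55 and 5.45 in the control libraries. It reached 112, 107 and 102 CPM in Splice del, 18.8, 19.3 and 22.3 CPM in C321fs and 84.8, 96.2 and 86.6 CPM in A333fs libraries. No library of one line reached the range of another: control was lowest, then C321fs, A333fs and Splice del. The means were 4.55 ± 0.911 (SD, n = 3), 20.1 ± 1.89, 89.2 ± 6.12 and 107 ± 5.15 CPM in that order. The fitted difference from control was 23.5-fold in Splice del (log2 fold change 4.56, standard error 0.11), 4.43-fold in C321fs (2.15, 0.11) and 19.6-fold in A333fs cells (4.29, 0.11). The genes were chosen on their differences from control, with SLC6A14 first, so all their values against control are a description, not a test. No p-value is given for them, and the calls given further on apply limits to this same contrast. In a bulk sample, fewer cells that express a gene and less RNA per cell cannot be told apart.

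**Figure D1:**
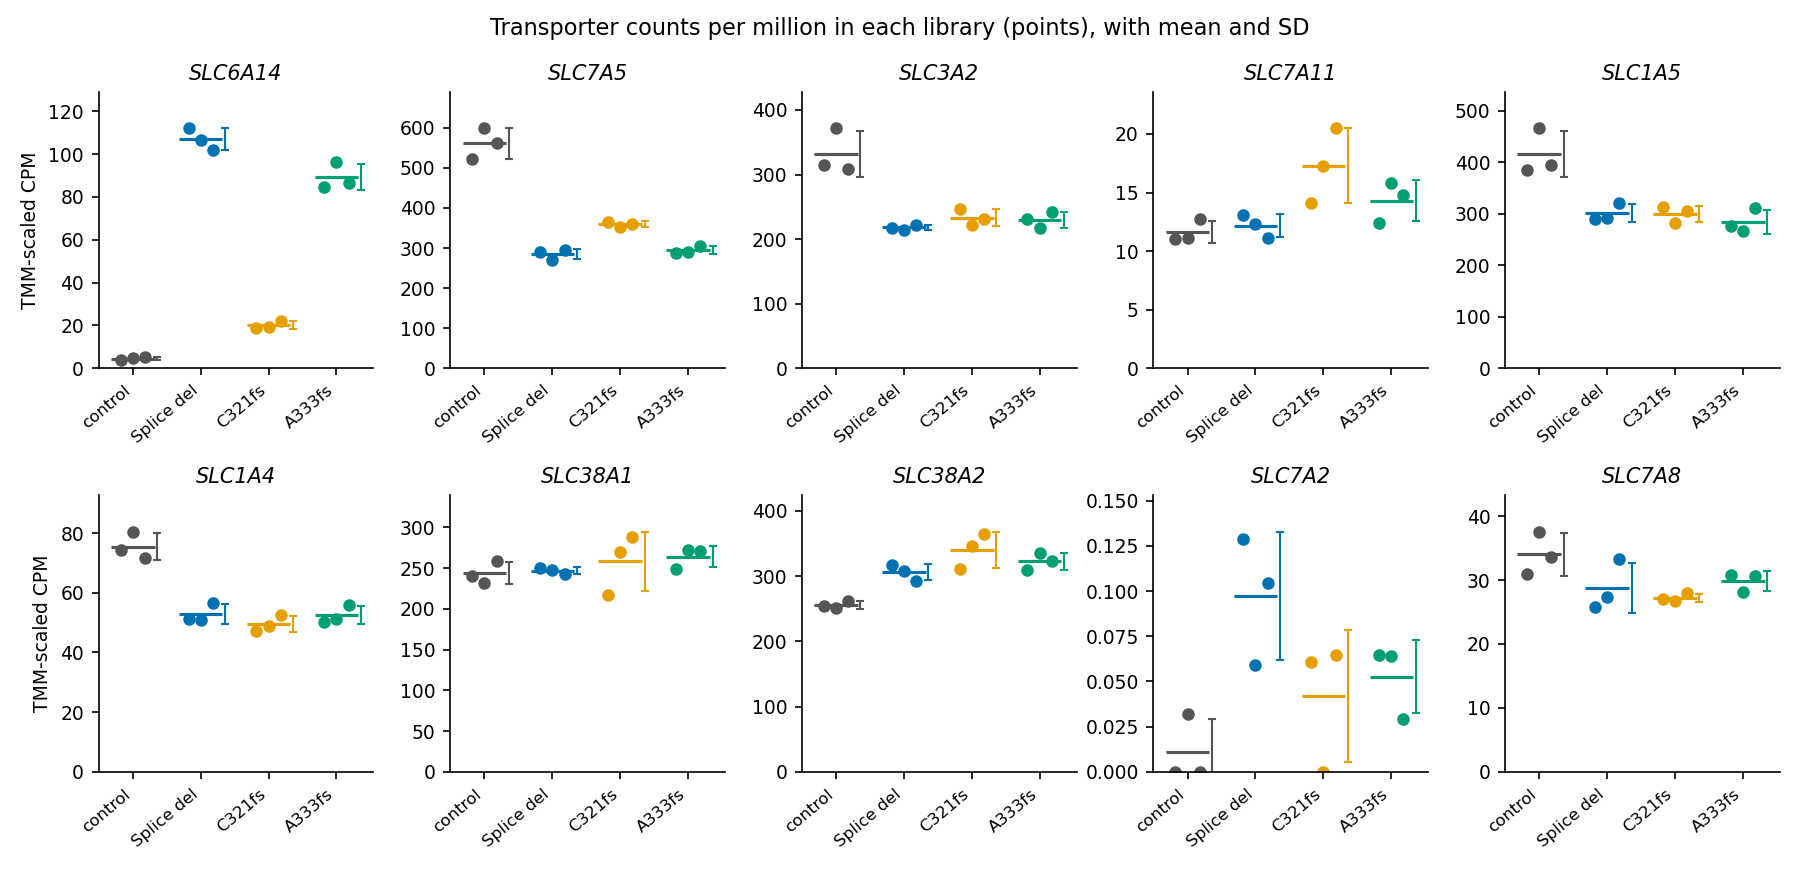
TMM-scaled CPM (y axis, from 0, a scale of its own in each panel) for the 10 genes in the 3 libraries of control, Splice del, C321fs and A333fs cells. Points are libraries, horizontal lines are means and the bars beside them are SDs, cut at 0. SLC6A14 runs from 4.55 CPM on average in control to 107 CPM in Splice del, SLC7A5 is highest in control, and SLC7A2 stays below 0.13 CPM in all libraries.

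The light chain SLC7A5, which imports leucine and other large neutral amino acids, went the other way (chromosome 16, 87830023 to 87869494, minus strand). It lay at 522, 598 and 563 CPM in control, 289, 270.4 and 295 CPM in Splice del, 366, 352 and 359.7 CPM in C321fs and 289, 290.1 and 306 CPM in A333fs libraries. Control was highest without exception, and C321fs lay between control and the other mutants without overlap. Against control, SLC7A5 was 1.97-fold lower in Splice del (log2 fold change -0.98, standard error 0.06), 1.56-fold lower in C321fs (-0.64, 0.06) and 1.90-fold lower in A333fs cells (-0.93, 0.06). Its heavy chain SLC3A2 (chromosome 11, 62856012 to 62888883) had 314, 372 and 308 CPM in control, and between 214 and 247 CPM in the 9 mutant libraries. Control again lay above every mutant library. SLC3A2 had log2 fold changes of -0.60 with Splice del, -0.53 with A333fs and -0.51 with C321fs (standard error 0.07 each).

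The other light chains differed less. SLC7A8 (chromosome 14, 23125295 to 23183660), which exchanges large and small neutral amino acids, had 30.9, 37.6 and 33.6 CPM in control. Its mutant libraries ran from 25.8 to 33.2 CPM, and those of Splice del overlapped control. SLC7A11, the cystine and glutamate exchanger (chromosome 4, 138164094 to 138242349), had 11.1, 11.2 and 12.7 CPM in control and 14.1, 17.3 and 20.5 CPM in C321fs libraries. In Splice del it had 13.1, 12.3 and 11.1 CPM and in A333fs 12.4, 15.8 and 14.8 CPM, so that only the C321fs libraries all lay above control. The C321fs libraries also spread most. The counting used no strand, and SLC7A11 shares 276 exonic bases with SLC7A11-AS1, an antisense gene, the only shared exon among the 10 genes.

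Both exchangers of the SLC1 family were lower in the mutant cells. SLC1A5, the glutamine exchanger (chromosome 19, 46774883 to 46788585), had 385, 466 and 395 CPM in control, and its mutant libraries ran from 266 to 322 CPM. For SLC1A5 the log2 fold change was -0.47 in both Splice del and C321fs and -0.55 in A333fs cells (standard error 0.08 each). SLC1A4, which exchanges alanine, serine and cysteine (chromosome 2, 64988445 to 65023866), had 74.3, 80.5 and 71.7 CPM in control, and between 47.2 and 56.7 CPM in the mutant libraries. Its log2 fold changes were -0.52, -0.61 and -0.52 (standard error 0.07 each). Neither gene had a mutant library within the control range.

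The sodium-coupled carriers SLC38A1 and SLC38A2 lie 88.8 kb apart on chromosome 12 (46183056 to 46269425 and 46358188 to 46372862, both minus strand). SLC38A2 had 254, 251 and 262 CPM in control. It had 317, 308 and 292 CPM in Splice del, 311, 346 and 365 CPM in C321fs and 309.7, 336 and 323 CPM in A333fs libraries, all above control. The log2 fold changes of SLC38A2 were 0.26, 0.41 and 0.34 (standard error 0.06 each). SLC38A1 ran from 232 to 259 CPM in control and from 217 to 288 CPM in the mutant libraries, and every mutant line overlapped control. SLC7A2 had 0 to 5 counts in a library and did not pass the filter on low counts. The control libraries held 0, 1 and 0 counts, those of Splice del 5, 2 and 3, those of C321fs 2, 0 and 2 and those of A333fs 2, 2 and 1, and no fold is given at this depth.

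Calls needed both a fold change over 1.5 and, from the quasi-likelihood test of edgeR, a Benjamini-Hochberg adjusted p under 0.01. In Splice del against control, 1 of the 9 members that passed the filter was called higher (SLC6A14), beside 6.21% of all tested genes, and 2 were called lower (SLC7A5 and SLC3A2), beside 4.53%. In C321fs, 1 was called higher (SLC6A14; 4.63% of all tested genes) and 2 lower (SLC7A5 and SLC1A4; 2.26%). In A333fs, 1 was called higher (SLC6A14; 5.46%) and 1 lower (SLC7A5; 6.81%). Over the 9 members the median log2 fold change was -0.24 (Splice del), -0.32 (C321fs) and -0.19 (A333fs), and over all 14789 tested genes it was 0.03, 0.02 and 0.0086 in that order. These counts come from the contrast the genes were chosen on, nothing is read from them against the shares of all genes, and the 3 comparisons share the control libraries. Without normalization factors or with upper-quartile scaling, the members called lower in C321fs were 0 (SLC7A5 at -0.48 and -0.56) and those called higher 2, with SLC7A11, while in Splice del SLC7A5 alone was called lower. SLC3A2 and SLC1A4 lay close to the fold limit: SLC3A2 was not called without control replicate 2, and SLC1A4 was not called without control replicate 2 or without C321fs replicate 1. SLC7A11 was called higher in C321fs without C321fs replicate 1 or control replicate 3 (log2 fold change 0.70 and 0.64, 0.57 with all libraries), and SLC1A5 was called lower in A333fs without control replicate 1 or A333fs replicate 3 (-0.60 and -0.62).

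Across the whole table, the log2 fold change of a gene against control tended to be lower where the GC content of its exons was higher. Over the 14789 tested genes, which are not independent replicates, the rank correlation (Spearman) of exon GC content with the log2 fold change was -0.51 (Splice del), -0.55 (C321fs) and -0.67 (A333fs). The members spread over this range: the exons of SLC7A11 (35.4% GC), SLC6A14 (37.2%) and SLC38A2 (38.1%) lay far below the median of 49.6%, those of SLC38A1 (44.2%) below it, those of SLC1A4 (53.3%) and SLC7A8 (54.0%) above it, and those of SLC3A2 (57.8%), SLC7A5 (61.2%) and SLC1A5 (61.4%) highest. Once a smooth fit per library to exon GC content and length was taken out, SLC6A14 still differed from control by a log2 fold change of 4.20, 1.77 and 3.96. SLC38A2 went to -0.08, 0.06 and 0.00, and so did not keep its difference. SLC7A11 went to -0.29, 0.20 and 0.01. SLC7A5 went to -0.82, -0.45 and -0.56, under the fold limit in C321fs and A333fs cells. SLC3A2 went to -0.47, -0.37 and -0.26, SLC1A4 to -0.49, -0.53 and -0.43, and SLC1A5 to -0.29, -0.29 and -0.17. With this trend removed the members called lower were 1 (SLC7A5) in Splice del and 0 in C321fs and A333fs cells, while 363, 192 and 229 of all 14789 tested genes were called lower in Splice del, C321fs and A333fs. All control libraries fall on one side of this trend, so a technical and a biological trend cannot be told apart here.

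**Figure D2:**
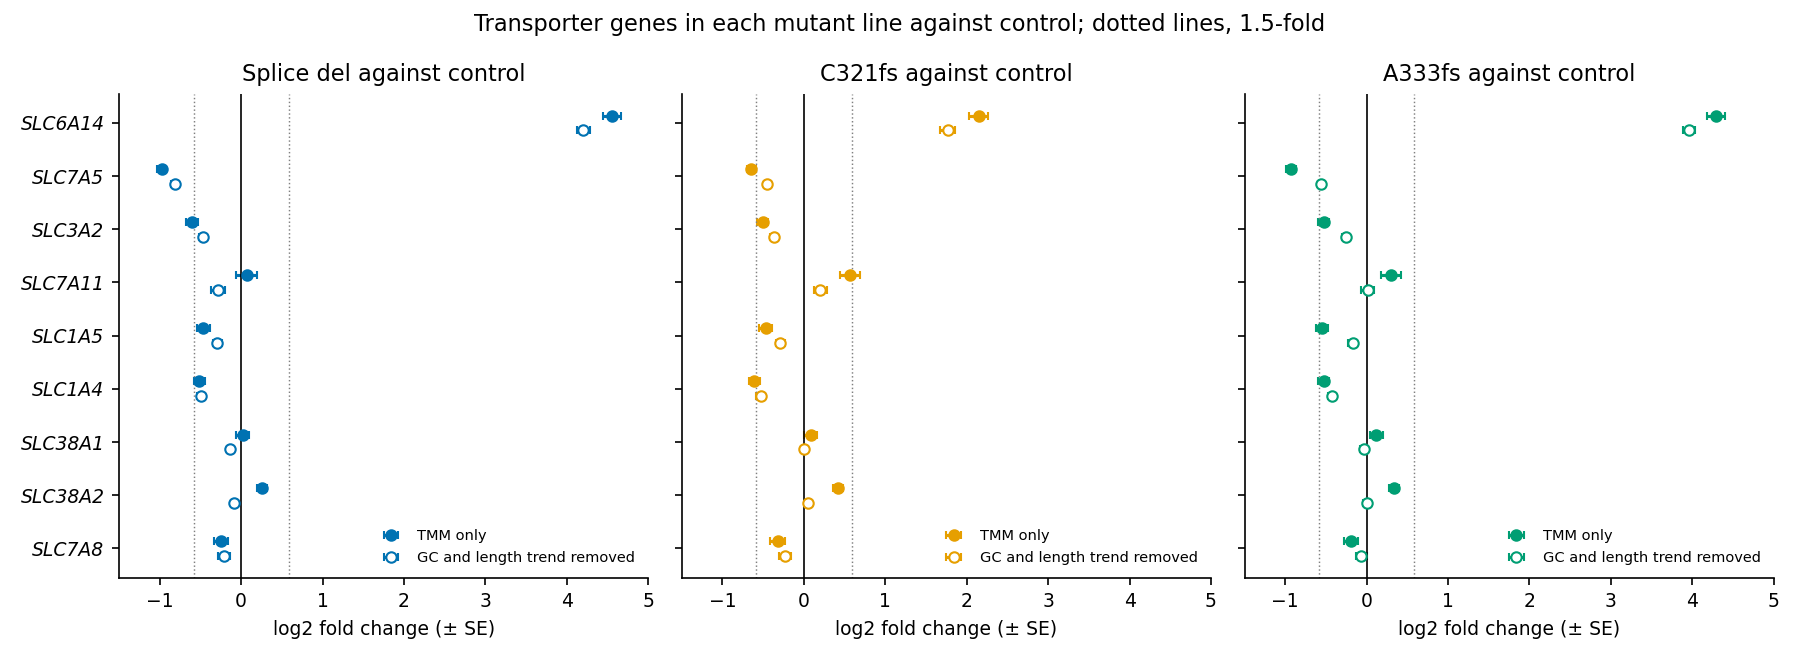
Log2 fold change against control (x axis, ± standard error) of the 9 members that passed the filter, for Splice del, C321fs and A333fs cells. Filled points use TMM alone, open points also remove the trend over GC content and exon length, and dotted lines mark the 1.5-fold limit. SLC6A14 stands at 4.56, 2.15 and 4.29 (open points 4.20, 1.77 and 3.96), and the open points of SLC38A2 lie near 0.

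**Figure D3:**
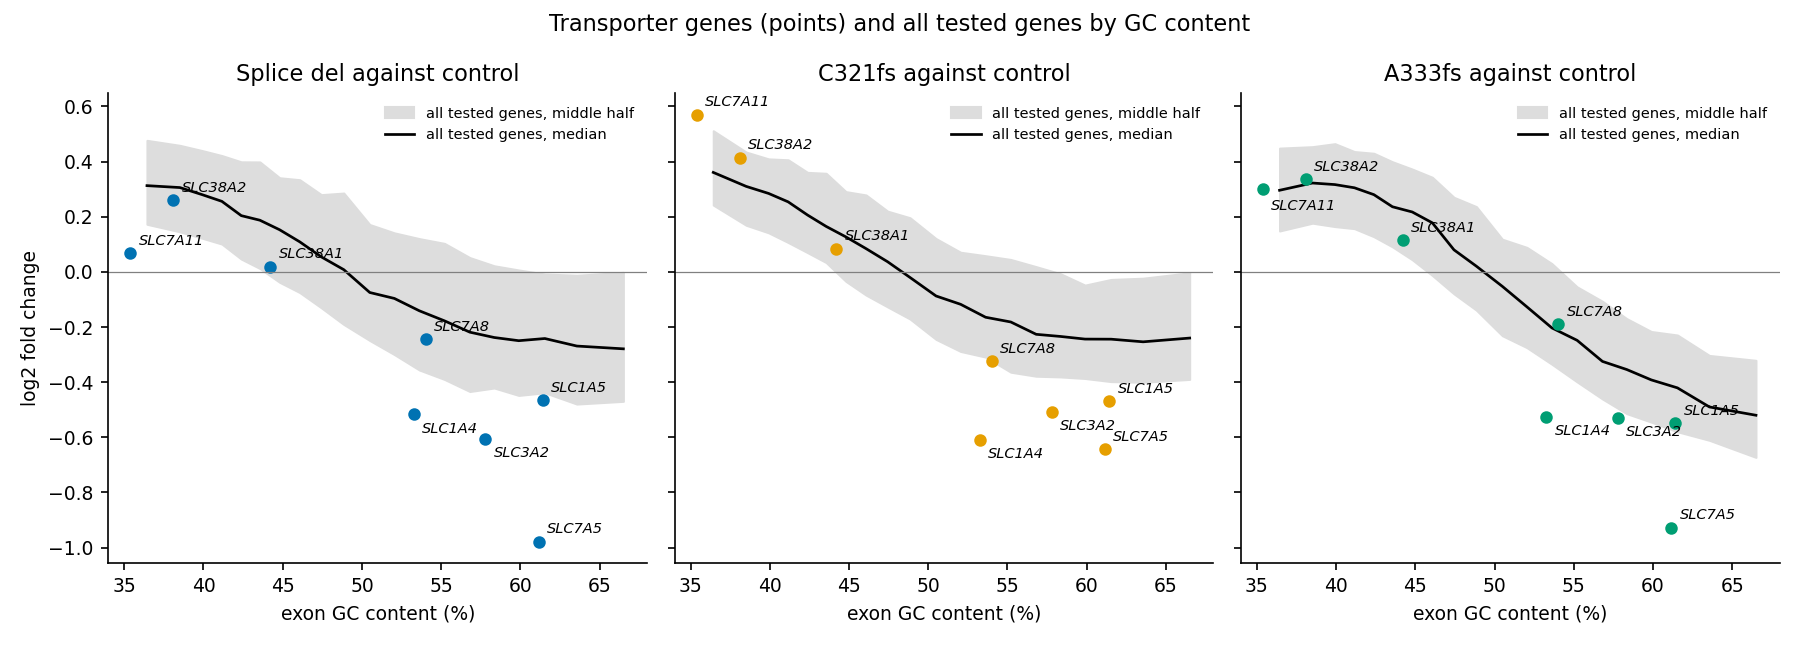
Log2 fold change against control (y axis) over exon GC content in percent (x axis) for 8 members (points) and for all tested genes in 20 bins of GC content (line, median; band, from the first to the third quartile). SLC6A14, at 37.2% GC and 4.56, 2.15 and 4.29, lies above the plotted range. SLC38A2 lies within the band in each line. SLC7A5, SLC3A2 and SLC1A4 lie below the band in each line, and SLC1A5 lies below it in Splice del and C321fs.

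Between the mutant lines only SLC6A14 passed both limits. These comparisons leave the level in control out. The control libraries still entered the filter, the TMM factors and the estimate of spread, since 1 fit held all 12 libraries. The mutant libraries are those described above, and their levels were known when the genes were chosen. SLC6A14 was 5.32-fold higher in Splice del than in C321fs cells (log2 fold change 2.41, standard error 0.09, 95% interval 2.21 to 2.61, edgeR adjusted p = 8.6e-11) and 4.43-fold higher in A333fs than in C321fs cells (2.15, 0.09, 1.95 to 2.34, adjusted p = 1.3e-10). All libraries of the higher line lay above all of C321fs. With the trend over GC content removed the differences were 2.44 and 2.19, and without C321fs replicate 1 they were 2.36 and 2.10. A333fs was lower than Splice del by 0.26 on the log2 scale (standard error 0.09, 95% interval -0.44 to -0.08, adjusted p = 0.036), which missed both limits, although their libraries did not overlap.

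SLC7A5 was lower in Splice del than in C321fs cells (log2 fold change -0.33, 95% interval -0.46 to -0.21, edgeR adjusted p = 0.00083) and lower in A333fs than in C321fs cells (-0.28, -0.40 to -0.16, adjusted p = 0.0016), both under the fold limit. With the trend over GC content removed, the difference between A333fs and C321fs was -0.11 (adjusted p = 0.038). In A333fs against Splice del, SLC7A5 differed by 0.05 (adjusted p = 0.57). With the trend removed that difference was 0.25 (adjusted p = 0.00011), under the fold limit. SLC7A11 was lower in Splice del than in C321fs cells by 0.50 on the log2 scale (95% interval -0.76 to -0.24, adjusted p = 0.013) and was called there without C321fs replicate 1 (-0.63, adjusted p = 0.0011). This library holds 14.1 CPM of SLC7A11, the lowest of its line. Without it the number of members called between these lines was 2 in place of 1. In A333fs against Splice del, SLC7A11 differed by 0.23 (adjusted p = 0.19). With the trend removed that difference was 0.30 (adjusted p = 0.0096), under the fold limit.

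For the remaining members the intervals between mutant lines bound what these libraries can show. SLC1A5 differed by 0.00 between Splice del and C321fs (95% interval -0.16 to 0.17), by -0.08 between A333fs and C321fs (-0.24 to 0.09) and by -0.08 between A333fs and Splice del (-0.25 to 0.08). SLC3A2 differed by -0.10 (-0.25 to 0.05), -0.02 (-0.17 to 0.13) and 0.08 (-0.07 to 0.22) in the same order. All 6 intervals, with TMM alone, lie inside the 1.5-fold limit and hold 0, so the sign of these differences was not resolved by that fit. With the trend over GC content removed, SLC3A2 differed by 0.21 in A333fs against Splice del (edgeR adjusted p = 0.0020), under the fold limit. With TMM alone, SLC38A1, SLC38A2, SLC1A4 and SLC7A8 also missed both limits in all 3 comparisons, with log2 fold changes between -0.16 and 0.13.

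In Splice del against C321fs, 1 of 9 members was called higher (1.76% of all tested genes) and 0 lower (0.879%), with 1 higher and 3 lower at an unadjusted p below 0.05. In A333fs against C321fs, 1 was called higher (2.47%) and 0 lower (3.08%), with 1 higher and 2 lower at an unadjusted p below 0.05. In A333fs against Splice del, 0 were called higher (1.03%) or lower (1.97%), with 1 lower at an unadjusted p below 0.05. The percentages are of genes called at the full limits, and no share over all genes is given at the unadjusted cut. DESeq2 called the same number of members in each of these comparisons.

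**Figure D4:**
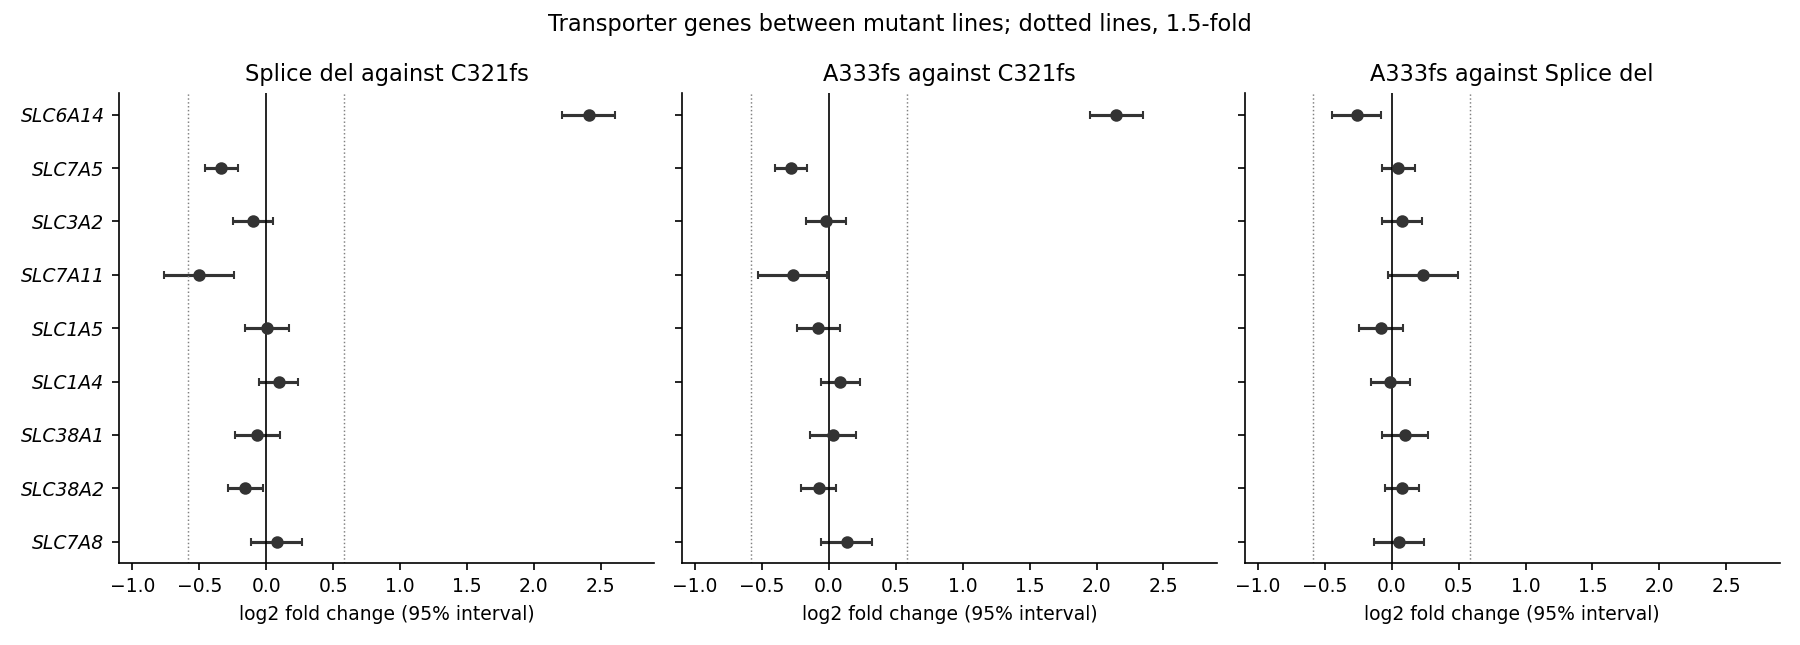
Log2 fold change between mutant lines (x axis, with 95% intervals) of the 9 members that passed the filter, for Splice del against C321fs, A333fs against C321fs and A333fs against Splice del. Dotted lines mark the 1.5-fold limit. SLC6A14 stands at 2.41 and 2.15 against C321fs, and the points of the other members lie inside the dotted lines.

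Compared per unit of transcript length, SLC6A14 was among the scarcest of these transcripts in control and C321fs cells and mid-ranked in Splice del and A333fs cells. In TPM (counts per exonic length, scaled to a fixed sum in each library), the order in control cells was SLC1A5 at 267 ± 17.6 (SD, n = 3), SLC7A5 at 255 ± 9.53 and SLC3A2 at 235 ± 15.7 TPM, then SLC38A2 at 108 ± 5.97, SLC38A1 at 50.5 ± 4.29, SLC1A4 at 32.6 ± 0.944 and SLC7A8 at 14.3 ± 0.874 TPM. SLC7A11 (2.49 ± 0.248 TPM) and SLC6A14 (2.06 ± 0.417 TPM) followed, ahead of SLC7A2 alone. SLC1A5 and SLC7A5 differed by less than their summed SDs, as did SLC7A5 and SLC3A2, and SLC7A11 and SLC6A14. In Splice del cells SLC6A14 had 58.3 ± 3.85 TPM, within the spread of SLC38A1 at 61.5 ± 2.10 TPM. In A333fs it had 45.7 ± 3.52 TPM, between SLC38A1 at 61.9 ± 3.69 and SLC1A4 at 25.7 ± 1.63 TPM. In C321fs it had 10.6 ± 1.55 TPM, below SLC7A8 at 13.3 ± 0.970 TPM.

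The summed level of the 10 transcripts was 967 ± 30.3 TPM for control, 897 ± 16.8 for Splice del, 850.2 ± 35.9 for A333fs and 886 ± 66.0 TPM for C321fs cells. SLC6A14 made up 0.213% ± 0.0430 of that sum in control cells, and 6.50% ± 0.388 with Splice del, 5.38% ± 0.467 with A333fs and 1.19% ± 0.0836 with C321fs. The share of SLC7A5 was 26.3% ± 0.664 in control cells, and 17.4% ± 0.441 with Splice del, 17.9% ± 0.0872 with A333fs and 21.3% ± 0.534 with C321fs. The share of SLC38A2 was 11.2% ± 0.921 in control and 17.4%, 18.8% and 18.2% in the mutant lines. In Splice del and A333fs cells the shares of SLC38A2 and SLC7A5 lay within their spread of each other. TPM values carry no TMM factor and the same trend over GC content, so these shares describe the libraries as counted.

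The heavy chain was also set against the light chains that can pair with it (SLC7A5, SLC7A6, SLC7A7, SLC7A8, SLC7A10 and SLC7A11). SLC3A2 amounted to 0.789 ± 0.0515 (SD, n = 3) of their summed TPM in control and 0.809 ± 0.0423 in C321fs cells, and these libraries overlapped. It amounted to 0.912 ± 0.0208 in Splice del and 0.953 ± 0.0373 in A333fs cells, where every library lay above those of control and C321fs. SLC7A5 was the main light chain in all lines, with 85.4% ± 0.474 of the light-chain sum in control cells, and 76.1% ± 0.644 with Splice del, 78.1% ± 0.246 with A333fs and 79.6% ± 1.45 with C321fs. No test was made on these ratios.

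**Figure D5:**
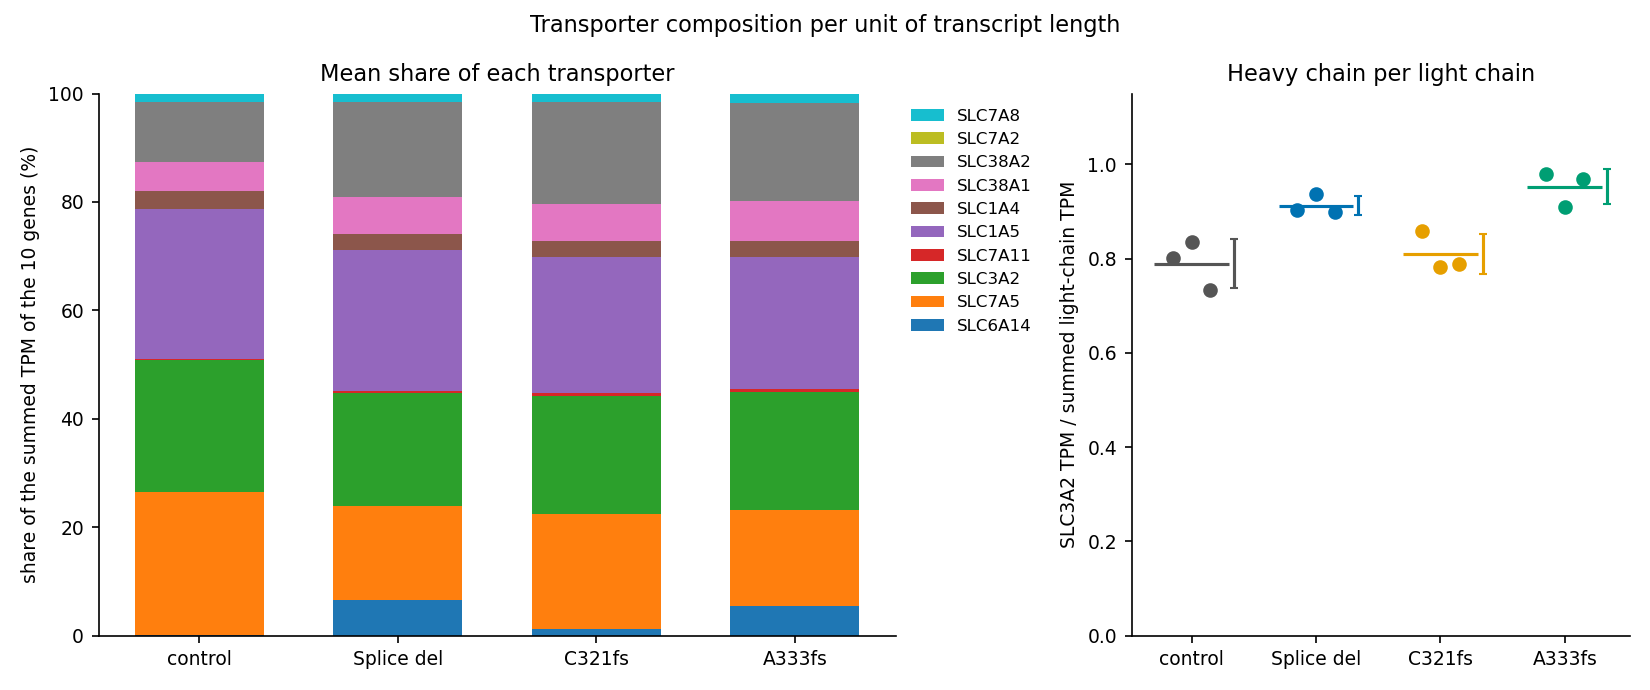
Left, the mean share (y axis, percent) of each of the 10 genes in their summed TPM in the 4 lines. Right, SLC3A2 TPM divided by the summed TPM of its light chains (y axis, from 0), with a point for each library, the mean as a line and the SD as a bar. SLC6A14 takes 6.50% of the sum in Splice del and 0.213% in control, and the ratio is 0.789 in control and 0.953 in A333fs.

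Other plasma membrane carriers of amino acids were taken as a list of 39 genes, 16 of which passed the filter. In Splice del against control, 3 of the 16 rose (SLC1A1, SLC1A2 and SLC6A17), beside 6.21% of all tested genes, and 1 fell (SLC7A1), beside 4.53%. None of the 16 was called in C321fs by edgeR or by DESeq2, beside 4.63% of all tested genes called higher and 2.26% lower by edgeR. At an unadjusted p below 0.05, a looser cut, 5 were higher and 6 lower. No share over all genes is given at that cut. In A333fs, 1 rose (SLC6A17; 5.46% of all tested genes) and 2 fell (SLC7A1 and SLC43A1; 6.81%). Over the 16 genes the median log2 fold change was -0.01 (Splice del), 0.03 (C321fs) and -0.22 (A333fs). Between mutant lines 1 was higher and 1 lower in Splice del than in C321fs (SLC1A2 and SLC43A1; 1.76% and 0.879% of all tested genes), and 1 higher and 1 lower in A333fs than in C321fs (SLC6A17 and SLC43A1; 2.47% and 3.08%). In A333fs against Splice del 0 were called by edgeR or DESeq2, beside 1.03% of all tested genes called higher and 1.97% lower by edgeR. At the looser unadjusted cut of 0.05, 5 were lower, again with no share over all genes.

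SLC7A1 (CAT1), the main importer of arginine and lysine in most cells, was the one abundant gene among these. It had 81.8, 78.9 and 82.3 CPM in control, 49.6, 50.1 and 48.8 CPM in Splice del, 60.5, 62.5 and 64.7 CPM in C321fs and 50.5 to 56.0 CPM in A333fs libraries. The levels of control lay highest and those of C321fs between control and the other mutants, with no overlap of C321fs and either. SLC7A1 fell by 0.71 on the log2 scale in Splice del (standard error 0.05, edgeR adjusted p = 9.3e-08) and by 0.61 in A333fs (0.05, adjusted p = 3.7e-07). The C321fs value, -0.37 (0.05, adjusted p = 6.2e-05), stayed under the fold limit. Against C321fs, SLC7A1 differed by -0.34 in Splice del (adjusted p = 0.00051) and -0.23 in A333fs cells (adjusted p = 0.0046), also under that limit. In A333fs the call was lost without A333fs replicate 1 or 2 and with the trend over GC content removed (-0.52), leaving 1 gene that fell in place of 2.

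The remaining calls were of genes with means below 3 CPM. SLC43A1 (LAT3), a carrier of leucine and other large neutral amino acids, had 1.79 ± 0.171 CPM (SD, n = 3) in control cells, and 2.35 ± 0.251 CPM with C321fs, 1.36 ± 0.211 with Splice del and 0.880 ± 0.0737 with A333fs. It fell in A333fs (log2 fold change -1.02, standard error 0.18, edgeR adjusted p = 0.00021) and was lower in A333fs and Splice del than in C321fs cells (-1.41, adjusted p = 2.1e-05, and -0.78, adjusted p = 0.0042). SLC6A17, which was listed with the plasma membrane families though it is known as a carrier of synaptic vesicles, had 0.316 ± 0.130 CPM in control and rose in Splice del (1.41, 0.30, adjusted p = 0.0010) and A333fs cells (1.75, 0.29, adjusted p = 9.8e-05). Its difference between A333fs and C321fs was 1.10 (adjusted p = 0.0057). The glutamate carriers SLC1A1 and SLC1A2 rose in Splice del by 0.66 (standard error 0.18, adjusted p = 0.0062) and 0.71 (0.19, adjusted p = 0.0059), and SLC1A2 was higher in Splice del than in C321fs cells by 0.85 (adjusted p = 0.0085). Neither was called in Splice del without control replicate 1 or 2 or without Splice del replicate 1 or 2, which left 1 gene that rose (SLC6A17) in place of 3, and without Splice del replicate 3 SLC1A2 alone was lost, leaving 2. The glycine carrier SLC6A9, named after its values were seen, was called lower in C321fs without control replicate 1 or 3 or without C321fs replicate 3, which made the count there 1 in place of 0.

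Genes of the amino acid response, which ATF4 turns on when amino acids are short, were read beside the carriers from a list of 16 genes, all tested. In Splice del 1 rose (6.21% of all tested genes) and 4 fell (4.53%), in C321fs 1 rose (4.63%) and 2 fell (2.26%), and in A333fs 2 rose (5.46%) and 3 fell (6.81%). The median log2 fold change of the list was -0.35, -0.33 and -0.25, and that of all tested genes 0.03, 0.02 and 0.0086. With the trend over GC content removed the list stood at -0.26, -0.23 and -0.09, and all tested genes at -0.05 in each line. PHGDH and SHMT2, enzymes of serine and glycine synthesis, fell in Splice del (log2 fold change -0.73 and -0.88, edgeR adjusted p = 6.1e-07 and 1.0e-07) and A333fs cells (-0.75 and -0.72, adjusted p = 3.7e-07 and 6.1e-07). SHMT2 also fell with C321fs (-0.63, adjusted p = 5.4e-06), where PHGDH, at -0.56 (adjusted p = 1.35e-05), stayed under the fold limit. With the trend removed, PHGDH and SHMT2 kept their calls in Splice del (-0.59 and -0.77). Neither was then called in A333fs (-0.50 each), nor SHMT2 in C321fs cells (-0.52). ASNS, which makes asparagine, had 67.1, 70.1 and 60.3 CPM in control and 43.2, 40.5 and 40.5 CPM in Splice del libraries. It fell there (-0.67, edgeR adjusted p = 1.2e-06). In C321fs it was at -0.33 (adjusted p = 0.00078), under the fold limit, and in A333fs at -0.13 (adjusted p = 0.105). With the trend removed ASNS was at -0.27 in A333fs cells (adjusted p = 0.00045), also under that limit.

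DDIT4, an inhibitor of mTORC1 signalling, rose in all 3 lines: 0.77 in Splice del (edgeR adjusted p = 1.2e-05), 1.04 in C321fs (adjusted p = 2.0e-06) and 0.62 in A333fs cells (adjusted p = 7.1e-05) on the log2 scale. CHAC1, NUPR1 and DDIT3 were also called and are named after their values were seen. CHAC1, which degrades glutathione, fell in Splice del (-0.96, edgeR adjusted p = 1.6e-05) and, just past the fold limit, in A333fs cells (-0.59, adjusted p = 0.00074). It was lower in Splice del than in C321fs cells by 0.61 (log2 fold change -0.61, adjusted p = 0.0052). With the trend over GC content removed, the calls in A333fs (-0.25, adjusted p = 0.12) and in Splice del against C321fs (-0.56) were lost. NUPR1 fell in C321fs (-0.75, adjusted p = 2.7e-06). The transcription factor gene DDIT3 (CHOP) rose in A333fs cells just past the fold limit (0.59, adjusted p = 4.0e-06), and was not called there with the trend removed (0.50). With the trend over GC content removed, 1 gene of this list rose and 5 fell in Splice del, 1 rose and 1 fell in C321fs, and 1 rose and 0 fell in A333fs cells.

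The genes whose levels over the 12 libraries were most like those of SLC6A14, among 13014 genes with a mean log2 CPM of at least 0, were GALNT5 (Pearson r = 0.993), GALC (0.992), RNF145 (0.991), SDCBP (0.991) and DEGS1 (0.989). These values describe 4 clusters of 3 libraries and carry no test. GALNT5, a glycosyltransferase gene, had a mean of 0.143 CPM in control cells, and 0.981 CPM with C321fs, 5.62 with A333fs and 8.38 with Splice del. GALC, which encodes the lysosomal enzyme galactocerebrosidase, had 13.8, 20.2, 33.0 and 33.2 CPM in the same order. DEGS1, a desaturase gene of ceramide synthesis, had 61.5, 98.9, 156 and 177 CPM. All 5 share the order control, C321fs, A333fs and Splice del in their means, which follows largely from picking them for likeness to SLC6A14. Among the members the correlation of log2 CPM with SLC6A14 was -0.97 for SLC7A5, -0.87 for SLC3A2, -0.81 for SLC1A5, -0.74 for SLC1A4 and -0.47 for SLC7A8. It was 0.62 for SLC38A2, 0.25 for SLC38A1 and 0.15 for SLC7A11.

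SLC6A14 lies in a stretch of chromosome X with no other tested gene near it. The nearest tested gene on the left was PLS3, 786 kb away, and on the right KLHL13, 1436 kb away. Neither was called in any line. PLS3 had log2 fold changes of 0.21, 0.39 and 0.36 (edgeR adjusted p = 0.018, 0.00029 and 0.00033), under the fold limit, and KLHL13 of 0.08, -0.08 and 0.17 (adjusted p = 0.33, 0.30 and 0.034). On chromosome 12, SCAF11, 192 kb left of SLC38A1, had 0.28, 0.30 and 0.07 (adjusted p = 0.051, 0.041 and 0.62). LOC100288798, 10.8 kb right of SLC38A2, had 0.00, 0.19 and 0.35 (adjusted p = 0.98, 0.13 and 0.0071), and was not called either.

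The libraries held 27872208 to 36788024 counted fragments, and the TMM factors lay between 0.884 and 0.943 in control and between 1.01 and 1.05 in the mutant libraries. GATA3 counts, which do not separate wild-type from introduced transcripts, averaged 1281 CPM in control cells, and 1142 CPM with C321fs, 1016 with A333fs and 1001 with Splice del. All 9 luminal epithelial markers were present in every line, with a summed level of 18221 to 21444 CPM in control libraries and 12056 to 15002 CPM in mutant libraries, a sum made mostly of KRT8, KRT18 and KRT19. Not all of its genes were lower in every mutant line. EPCAM averaged 208 CPM in control and 278, 268 and 268 CPM in Splice del, C321fs and A333fs. In the same order CDH1 had 489 CPM in control and 568, 465 and 592 CPM, and ESR1 221 CPM and 259, 219 and 239 CPM. FOXA1 had 478 CPM in control and 450, 387 and 367 CPM, and PGR 1107 CPM and 1089, 937 and 1052 CPM. The means of FOXA1 and PGR were thus lower in each mutant line. The part of these differences in the results was not tested. Of 5 fibroblast markers 3 were under 1 CPM in every line (COL1A2, PDGFRA and PDGFRB), and the summed level, mostly COL1A1, was 53.2 to 64.9 CPM in control and 29.6 to 50.7 CPM in mutant libraries. The summed levels of basal (3 markers), immune (4) and endothelial (3) markers reached 1.29, 4.78 and 0.0957 CPM.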

How the data were processed

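The gene counts of the 12 RNA-seq libraries were used, 3 for each T47D line. The ChIP-seq samples of the series were not analysed here. The authors trimmed the paired reads (Trimmomatic), used hg38 for alignment and counted fragments per gene with featureCounts 1.6.4 (per the file headers, paired, no strand), and the deposited counts are whole numbers that are not normalized. The aligner is not settled, since the labels list HISAT2 and the header names a STAR folder. Per the labels the submitters used DESeq2.

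Genes were kept with filterByExpr (14789 of 26485), given TMM factors, and tested by glmQLFit and glmQLFTest of edgeR 4.0.16 (R 4.3.3), with 1 coefficient per line over all 12 libraries. The limits for a call (1.5-fold, adjusted p under 0.01) were those of the study's results. Log2 CPM used a prior count of 2. The trend over GC content and exon length was removed with loess (span 0.3), fitted to genes outside the lists, as offsets. Exon GC content came from hg38, and promoters from RefSeq (GRCh38.p14).

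The members and lists were chosen with earlier results of these data known. Named genes were the 10 members, other carriers called against control (at most 12), at most 4 called genes of each further list by smallest adjusted p, the 5 genes most like SLC6A14 and the nearest tested neighbours of SLC6A14, SLC38A1 and SLC38A2. A listed gene is not reported here. The edgeR fit in its main setting was tested on simulated counts with known changes. Alternatives were RLE, upper-quartile and no normalization factors, no filter, at least 10 counts in every library, DESeq2 1.42.0, the libraries of the pair alone, a replicate block, the GC trend, and each library left out.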

Additional observations from a re-analysis of the deposited data

Results flagged for a closer look

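SLC6A14 differed between mutant lines in its difference from control by a direct test of the lines, with log2 fold changes of 2.41 for Splice del against C321fs and 2.15 for A333fs against C321fs cells. The same test picked out 4 carrier contrasts outside the members: SLC1A2 (0.85, Splice del against C321fs), SLC43A1 (-0.78 for Splice del and -1.41 for A333fs, each against C321fs) and SLC6A17 (1.10, A333fs against C321fs). It also picked out CHAC1 of the amino acid response (-0.61, Splice del against C321fs, not called with the trend over GC content removed) and the quinone reductase gene NQO1 (0.68, A333fs against C321fs). All of these contrasts share the C321fs libraries. With 3 libraries per line, no outlier test was made on single genes.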

How the results depend on the processing

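The SLC6A14 differences between mutant lines kept their call, or its absence, in all 15 alternatives: 2.36 to 2.49 for Splice del against C321fs, 2.10 to 2.23 for A333fs against C321fs and -0.30 to -0.23 for A333fs against Splice del (log2, every alternative included). The last had an adjusted p under 0.01 with the trend removed (0.0020) and with the libraries of the pair alone (0.0055), and stayed under the fold limit. With 1 library left out, the number of members called was 1 to 2 in Splice del against C321fs, 1 to 1 in A333fs against C321fs and 0 to 0 in A333fs against Splice del. The counts of other carriers called against control moved more, and the cause was not tested. Carriers that rose in Splice del were 1 with the GC and length trend removed and 1 to 3 with a library left out (3 reported). The 1 that fell in Splice del was 0 without normalization factors. In C321fs, 1 rose without normalization factors, and 0 to 1 fell with a library left out. In A333fs, 2 rose with upper-quartile scaling and without factors and 0 with at least 10 counts in every library, since SLC6A17 then leaves the test. The 2 that fell in A333fs were 1 with upper-quartile scaling, without factors, with no filter, with the trend removed, and 1 to 2 with a library left out. The log2 fold changes of SLC6A14 against control ran from 4.20 to 4.75, 1.77 to 2.32 and 3.96 to 4.44 in Splice del, C321fs and A333fs cells. Of 1035 values under alternatives, 942 kept their call or stayed within 1.5 times or 1 SD, 92 moved and 1 passed the limits anew (SLC7A11, Splice del against C321fs). No called value changed sign, but with the trend removed uncalled ones did, among them 4 members' values against control (Splice del against control, SLC38A2 -0.08, SLC7A11 -0.29 and SLC38A1 -0.14, and A333fs, SLC38A1 -0.03). Without normalization factors the median of all genes moved to 0.22, 0.19 and 0.16 (0.12, 0.11 and 0.12 with upper-quartile scaling), and the share of higher among called genes was 92.2%, 93.2% and 80.2% (79.1%, 86.3% and 73.7%), against 57.8%, 67.2% and 44.5% with TMM. With the trend removed it was 65.4%, 71.0% and 71.6%. The replicate numbers did not pair the libraries (mean r = -0.0092 over 18 pairs of same-numbered libraries, 2 above 0.1), and the replicate block changed no count of members or other carriers called. At this depth SLC7A2 (0 to 5 counts) could not be compared.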

Other observations

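NRF2 target genes were read because SLC7A11 is one of them, and 2 are given here. NQO1, a quinone reductase, had 426, 419 and 403 CPM in control and 648, 608 and 642 CPM in A333fs libraries, where it rose (log2 fold change 0.61, standard error 0.05, edgeR adjusted p = 2.1e-07). OSGIN1, an oxidative stress gene, fell by 0.98 on the log2 scale in A333fs cells (edgeR adjusted p = 3.7e-08). With the trend over GC content removed neither was called in any line against control, with NQO1 at 0.35 and OSGIN1 at -0.55 in A333fs cells.

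Amino acid carriers of mitochondria, lysosomes and vesicles formed a list of 18 genes, 14 of them tested. The mitochondrial glutamate carrier SLC25A22 alone was called in A333fs cells, beside 5.46% of all tested genes called higher and 6.81% lower. It fell there (log2 fold change -0.64, standard error 0.08, edgeR adjusted p = 4.4e-06, and -0.19 with the trend removed). With the trend removed, 1 gene of the list was called higher and 0 lower in A333fs cells. None of the 14 was called in Splice del or C321fs cells by edgeR or DESeq2. Of all tested genes, edgeR called 6.21% higher and 4.53% lower in Splice del, and 4.63% and 2.26% in C321fs. At an unadjusted p below 0.05, 2 of the 14 were higher and 6 lower in Splice del, and 3 higher and 8 lower in C321fs. No share over all genes is given at that looser cut.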
